A study of Homo sapiens with 6 samples.

Results

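The genes examined here were the 4 ID genes (ID1, ID2, ID3 and ID4) and 6 genes of the bone morphogenetic protein (BMP) pathway that acts upstream of them (BMP4, BMPR1A, BMPR2, SMAD1, SMAD5 and SMAD9). They were chosen by name, without a measured value in the rule, but with earlier results of these data known. For that reason no p-value was computed over the members as a set. All 10 were found among the 35474 genes of the deposited count table. The libraries were made from A549, an established human lung adenocarcinoma cell line, in which BAP18 was knocked down. BAP18 is the product of C17orf49, a chromatin protein that reads trimethylated lysine 4 of histone H3. The siCtrl group (3 libraries) received a non-specific siRNA and the siBAP18 group (3 libraries) an siRNA against BAP18, and RNA was taken from both 48 h later. The labels describe the libraries of each group as biological replicates, no library carries another treatment, and all 6 come from the same parental line. The study used several BAP18 siRNAs, and which of them these libraries received was not given in the sources used here, so an effect of the siRNA on other transcripts and an effect of losing BAP18 cannot be told apart.

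BMP ligands bind pairs of type I and type II serine/threonine kinase receptors, and the activated type I receptor phosphorylates SMAD1, SMAD5 and SMAD9. These receptor-regulated SMADs join SMAD4, enter the nucleus and switch on target genes, among which the ID genes are the best known direct ones. ID proteins carry a helix-loop-helix dimerization domain without a DNA-binding region, so they capture E proteins such as TCF3 in dimers that cannot bind DNA and thereby hold back differentiation and cell cycle arrest genes. In lung epithelium BMP4 is a morphogen of airway branching, and ID1 is often abundant in lung carcinoma cells.

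Library totals lay between 46035635 and 53657450 counts in siCtrl and between 42094524 and 56548620 in siBAP18. The targeted gene, C17orf49, was counted 743, 751 and 705 times in the siCtrl libraries and 120, 137 and 108 times in siBAP18 (replicates 1 to 3 in order, here and below). Its log2 fold change was −2.65 (SE 0.111, edgeR adjusted p = 7.31e-16). All 7 markers chosen for A549 and its epithelial origin were detected, and their summed level was 31575 to 33270 counts per 1000000 counts of the library (CPM) in siCtrl against 21355 to 24225 CPM in siBAP18. None of 3 alveolar type II markers exceeded 3 counts on average over the libraries. Of the immune markers only CD68, which also marks lysosomes, was listed, at 62.2 to 68.6 CPM in siCtrl and 114.8 to 158.4 CPM in siBAP18. Endothelial markers summed to at most 1.15 CPM, and fibroblast markers to 11.6 to 12.9 CPM in siCtrl and 8.61 to 10.3 CPM in siBAP18. Genes of the mitochondrial genome took 6.86% to 7.43% of the counts in siCtrl and 5.27% to 6.14% in siBAP18. The part of these differences in the results on the ID and BMP genes was not tested. In bulk RNA, fewer cells that express a gene and less RNA of it per cell cannot be told apart.

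After BAP18 knockdown, 8 of the 9 members that could be tested were lower and none was higher, with ID2 and ID1 the most reduced and ID3 at its control level. Levels below are CPM after TMM scaling, which corrects for library size and composition. Each fold change is siBAP18 against siCtrl on the log2 scale, and each adjusted p comes from the quasi-likelihood test of edgeR, adjusted by Benjamini-Hochberg over the 20776 genes that passed the filter on low counts. SMAD9 did not pass that filter. At an adjusted p under 0.05, 8 of 9 members were lower, where 25.1% of all genes tested were lower, and 0 of 9 were higher, where 24.5% of all genes tested were higher. ID1 and ID2 also lay below a log2 fold change of −1 (2 of 9, against 3.74% of all genes tested), and no member lay above 1 (0 of 9, against 4.72%). The same 8 members had all 3 siBAP18 libraries below all 3 siCtrl libraries, which held for 29.0% of the genes tested. The median log2 fold change was −0.59 over the 9 members and 0.00102 over all genes tested.

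**Figure D1:**
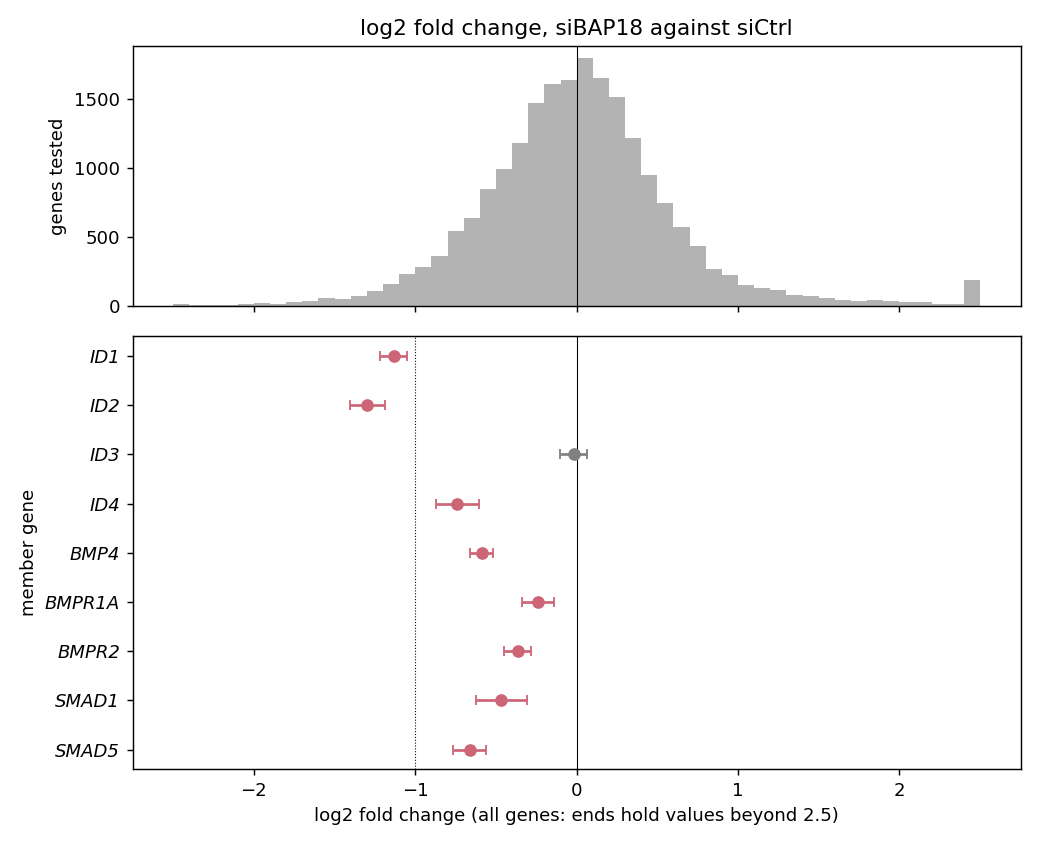
Upper panel, number of genes tested (y axis) by log2 fold change of siBAP18 against siCtrl (x axis), with values beyond 2.5 collected in the end bins. Lower panel, the log2 fold change of each of the 9 tested members as a point with its standard error as a bar, red where the adjusted p was under 0.05 and gray where it was not. ID3 sits at −0.02 on the line of no change, the other 8 sit left of it, and ID1 (−1.13) and ID2 (−1.30) lie beyond the dotted line at −1.

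BMP4, the only ligand among the members, fell. It had 28.9, 29.7 and 28.3 CPM in siCtrl and 19.1, 19.2 and 19.5 CPM in siBAP18. The 3 knockdown libraries were nearly equal and far below the 3 controls. The log2 fold change was −0.59 (SE 0.0713, edgeR adjusted p = 1.68e-07), and 13.0% of all genes tested had a lower value. BMP4 lies on the minus strand of chromosome 14 from 53949736 to 53958761 (hg38, as are all gene positions here).

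Both receptors among the members were lower by less than BMP4. BMPR2, the type II receptor that binds BMPs (chromosome 2, 202376936 to 202567751, plus strand), had 18.3, 17.2 and 16.7 CPM in siCtrl and 12.7, 14.6 and 13.2 CPM in siBAP18. The groups did not overlap, and the gene fell by 0.37 on the log2 scale (SE 0.0829, edgeR adjusted p = 0.000652). BMPR1A, a type I receptor (chromosome 10, 86756650 to 86932838, plus strand), had 8.54, 9.68 and 10.2 CPM in siCtrl and 7.52, 8.36 and 8.14 CPM in siBAP18. The lowest control stood barely above the highest knockdown library. Its log2 fold change of −0.24 (SE 0.0993) was the least certain of the 8 calls, with an edgeR adjusted p of 0.0481. It missed the threshold without siCtrl replicate 2 (−0.23, adjusted p = 0.127), without siCtrl replicate 3 (−0.19, adjusted p = 0.206) and without siBAP18 replicate 1 (−0.19, adjusted p = 0.182), and in 10 of the 14 alternative fits in all.

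The guide strand of an siRNA can act through its bases 2 to 8 on transcripts other than its target. These bases of siBAP18#3, which these libraries may not have received, were searched in the 3′ UTRs of the 10 members, and only BMPR2 held a match. The other BAP18 siRNAs of the study were not searched. The site lies at position 6774 of the 8049-base UTR, at chr2:202566465-202566493 (GRCh38, plus strand). It is printed with its flanks as the only match among the members, and capitals mark the match to ACTCAAC.
BMPR2 3′ UTR site: cagagggaatgACTCAACtaattggctac
The 3′ UTRs of 933 of 13740 tested genes, or 6.79%, hold at least 1 such match. Their median length was 1304 bases, far below the 8049 bases of BMPR2, so 6.79% is not the share for UTRs of that length. Whether it bears on the level of BMPR2 was not tested.

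Both tested SMADs of the class that BMP receptors phosphorylate fell, SMAD5 and SMAD1. SMAD5 (chromosome 5, 136132845 to 136188747, plus strand) had 15.3, 15.0 and 14.0 CPM in siCtrl and 8.82, 11.2 and 7.84 CPM in siBAP18. The knockdown libraries were spread more widely than the controls but lay wholly below them. The log2 fold change was −0.66 (SE 0.104, edgeR adjusted p = 7.85e-06). SMAD1 (chromosome 4, 145481194 to 145558079, plus strand) had fewer reads, at 3.69, 4.28 and 2.93 CPM in siCtrl and 2.32, 2.79 and 2.79 CPM in siBAP18. Here siCtrl replicate 3 came close to the knockdown libraries. SMAD1 fell by 0.47 on the log2 scale (SE 0.157, edgeR adjusted p = 0.0153), and this call was lost without siCtrl replicate 2 (−0.34, adjusted p = 0.119) or without siBAP18 replicate 1 (−0.38, adjusted p = 0.0837).

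SMAD9 (chromosome 13, 36844831 to 36920765, minus strand), the third SMAD of this class, was close to undetected. It had 2, 16 and 12 counts in siCtrl and 2, 6 and 0 counts in siBAP18, and a count of 0 allows up to 3 counts of the library. The groups overlapped, and a fit without the filter gave a log2 fold change of −2.02 (SE 0.799, edgeR adjusted p = 0.0405) that rests on these few reads. SMAD1, SMAD5 and ID2 share some exonic bases with antisense genes. SMAD1-AS1 covers 6.21% of the exonic bases of SMAD1, SMAD5-AS1 covers 6.95% of those of SMAD5, and ID2-AS1 covers 1.72% of those of ID2. Whether counting used the strand was not given in the sources used here, so reads in those bases may belong to either gene.

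**Figure D2:**
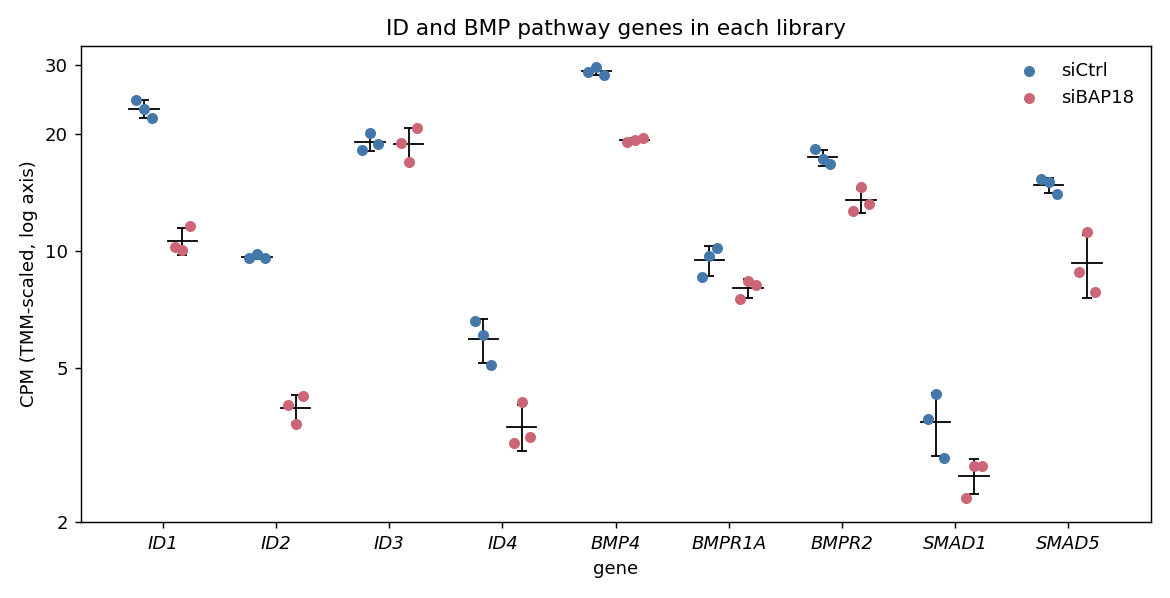
TMM-scaled CPM (y axis, log scale) of the 9 tested members in each library, siCtrl in blue and siBAP18 in red. Points are the 3 libraries of a group, lines the group mean and bars the SD. ID3 is the only gene whose groups overlap (19.1 ± 0.982 against 18.9 ± 1.89 CPM, mean ± SD, n = 3), and ID1 and ID2 show the widest gaps.

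The 4 ID genes did not move together. ID1, ID2 and ID4 fell and ID3 did not. ID1 and ID3 are classical early BMP response genes, and ID2 is also known as a partner of the retinoblastoma protein. Their promoters, 250 bases before to 50 bases after the annotated start in RefSeq (GRCh38.p14), are printed to set the gene that kept its level beside the 3 that fell. Capitals mark GTCT on either strand, which reads AGAC on the other one, and GGCGCC, the short sequences that SMAD complexes recognize. The windows are chr20:31605039-31605338 for ID1, chr2:8681806-8682105 for ID2 and chr6:19837120-19837419 for ID4, all on the plus strand, and chr1:23559452-23559751 on the minus strand for ID3.
ID1: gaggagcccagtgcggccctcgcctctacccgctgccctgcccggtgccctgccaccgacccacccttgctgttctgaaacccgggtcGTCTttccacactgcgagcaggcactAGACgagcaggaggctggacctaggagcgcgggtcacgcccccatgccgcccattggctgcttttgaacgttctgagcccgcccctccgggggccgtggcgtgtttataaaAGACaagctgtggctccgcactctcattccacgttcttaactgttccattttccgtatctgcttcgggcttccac
ID2: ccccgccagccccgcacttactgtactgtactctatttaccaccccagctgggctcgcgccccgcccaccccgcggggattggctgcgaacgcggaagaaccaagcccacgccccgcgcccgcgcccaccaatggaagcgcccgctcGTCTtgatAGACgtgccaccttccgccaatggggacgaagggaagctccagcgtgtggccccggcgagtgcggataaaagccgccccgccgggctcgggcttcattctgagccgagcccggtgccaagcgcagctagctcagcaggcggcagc
ID4: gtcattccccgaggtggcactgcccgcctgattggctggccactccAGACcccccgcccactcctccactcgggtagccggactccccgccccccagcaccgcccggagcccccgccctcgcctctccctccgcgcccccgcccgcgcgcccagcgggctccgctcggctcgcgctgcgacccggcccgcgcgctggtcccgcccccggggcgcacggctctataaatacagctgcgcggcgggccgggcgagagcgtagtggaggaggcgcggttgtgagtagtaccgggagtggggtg
ID3: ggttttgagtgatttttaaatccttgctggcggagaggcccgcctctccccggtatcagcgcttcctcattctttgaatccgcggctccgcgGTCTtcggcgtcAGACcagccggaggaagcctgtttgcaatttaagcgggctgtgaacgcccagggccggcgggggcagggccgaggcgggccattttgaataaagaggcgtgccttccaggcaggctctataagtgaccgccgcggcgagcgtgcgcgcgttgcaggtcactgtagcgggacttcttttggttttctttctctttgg
ID1 held 3 copies of GTCT, ID2 and ID3 held 2 each and ID4 held 1, in windows of 62.7%, 69.0%, 59.7% and 76.3% GC. None of the 4 windows held the longer SMAD motif. Of 35116 RefSeq promoter windows of the same length, 84.0% held the short motif and 19.2% the longer one. The E-box CANNTG, the letters that E proteins bind, occurred once in ID2 and once in ID4 and was not found in ID1 or ID3, against 68.7% of all windows with at least 1. The longer motif followed by the short one after 5 bases, as in known BMP-responsive elements, lay in 0.103% of all windows and in none of the 16 windows of the 10 members. Nothing about SMAD binding follows from these matches or from their absence.

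ID1 (chromosome 20, 31605283 to 31606515, plus strand) had 24.5, 23.1 and 22.0 CPM in siCtrl and 10.2, 10.1 and 11.6 CPM in siBAP18. All knockdown libraries were below the control range by a wide margin. The log2 fold change was −1.13 (SE 0.0832, edgeR adjusted p = 3.02e-11), so that 45.7% of the control level was left, and 2.54% of all genes tested had a lower value. ID2 (chromosome 2, 8678845 to 8684453, plus strand) had 9.57, 9.78 and 9.56 CPM in siCtrl and 4.01, 3.58 and 4.22 CPM in siBAP18. It had the lowest fold change of the 9 members, at −1.30 (SE 0.108, edgeR adjusted p = 2.70e-10), and 1.49% of all genes tested lay below it.

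ID4 (chromosome 6, 19837386 to 19840684, plus strand) had 6.60, 6.06 and 5.07 CPM in siCtrl and 3.20, 4.08 and 3.31 CPM in siBAP18. The groups were separate, with siCtrl replicate 3 and siBAP18 replicate 2 nearest each other. ID4 fell by 0.74 on the log2 scale (SE 0.133, edgeR adjusted p = 4.82e-05). ID3 (chromosome 1, 23557918 to 23559794, minus strand) had 18.2, 20.1 and 18.8 CPM in siCtrl and 18.9, 16.95 and 20.7 CPM in siBAP18. Its groups overlapped fully, and the log2 fold change was −0.02 (SE 0.0830, edgeR adjusted p = 0.877).

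Because the ratio of 2 genes within a library does not depend on how libraries are scaled, each ID gene was also set against ID3. The log2 ratio of ID1 to ID3 counts was 0.43, 0.20 and 0.23 in siCtrl and −0.89, −0.75 and −0.84 in siBAP18. More reads came from ID1 than from ID3 in every control and fewer in every knockdown library. The ratio differed by −1.11 between the groups, that of ID2 to ID3 by −1.28 and that of ID4 to ID3 by −0.73. Each of these 3 differences had a two-sided exact permutation p of 0.1 (adjusted to 0.133 over 4 ratios), the smallest that 3 against 3 libraries allow. ID3 was made the reference after its unchanged level had been seen. These differences therefore repeat the fold changes above, and their p-values are no further support. The ratio of ID1 to ID2 differed by 0.17 (exact permutation p = 0.2, adjusted to 0.2), with 1 knockdown library inside the control range.

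Levels per gene length (RPKM, counts scaled by gene length and library total) show what this did to the ID pool. Summed over ID1 to ID4, RPKM was 36.8, 37.3 and 34.6 in siCtrl and 22.1, 21.6 and 23.3 in siBAP18. The mean went from 36.2 ± 1.46 to 22.4 ± 0.872 RPKM (SD, n = 3), and the groups were far apart. The share of ID1 in this sum went from 51.8 ± 1.44% to 38.4 ± 0.691% and that of ID2 from 12.0 ± 0.379% to 7.97 ± 0.272% (SD, n = 3). The share of ID3 went the other way, from 29.2 ± 1.68% to 46.8 ± 1.57%, while its own RPKM was 10.6 in siCtrl and 10.5 in siBAP18. ID4 made up 6.93 ± 0.691% of the sum in siCtrl and 6.77 ± 1.33% in siBAP18, a difference smaller than the spread between libraries. ID3 thus replaced ID1 as the ID transcript with the highest level per length in all 3 knockdown libraries.

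**Figure D3:**
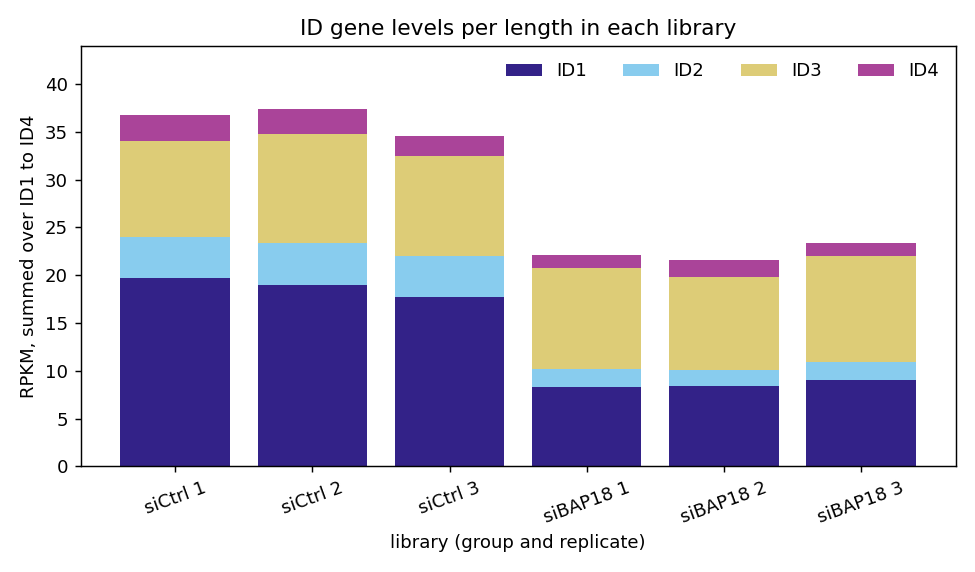
RPKM of ID1, ID2, ID3 and ID4 (y axis) stacked for each of the 6 libraries (x axis, group and replicate). The siCtrl bars reach 34.6 to 37.3 and the siBAP18 bars 21.6 to 23.3, the ID1 and ID2 blocks shrink, and the ID3 block keeps its height.

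In siCtrl the order of mean RPKM over the 10 members was ID1 (18.8), ID3 (10.6), BMP4 (9.38), ID2 (4.36), ID4 (2.52), SMAD5 (1.68), BMPR2 (1.46), BMPR1A (0.831), SMAD1 (0.599) and SMAD9 (0.0373). No neighbors in that order overlapped in their library ranges. In siBAP18 the order was ID3 (10.5), ID1 (8.60), BMP4 (6.26), ID2 (1.78), ID4 (1.51), BMPR2 (1.14), SMAD5 (1.06), BMPR1A (0.705), SMAD1 (0.435) and SMAD9 (0.00834). The ranges of ID2 and ID4 overlapped there, as did those of BMPR2 and SMAD5, so the order within those pairs is not resolved. Among the members, the 4 ID genes thus stood above the receptors and SMADs in RPKM in both groups. This does not extend to receptors and SMADs outside the members, such as BMPR1B and SMAD6.

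The genes whose profile over the 6 libraries was most like that of each ID gene were taken from 14221 genes of at least 1 on the average log2 CPM scale. Distance was the root mean square difference in log2 CPM after each gene was centered on its siCtrl mean. PPME1 (0.0398) and ALDOC (0.0412) were nearest to ID1, HS6ST1 (0.0507) and RAB15 (0.0634) to ID2, and PAPPA-AS1 (0.0638) and FIG4 (0.0685) to ID4. AGAP2 (0.0188) and AC004453.8 (0.0257) were nearest to ID3. No member was among these nearest genes. With this centering a small distance requires a similar fold change, as in ID1 and PPME1 (both −1.13). The distances therefore add little to the fold changes above.

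The rest of the pathway was read from 9 gene lists of 84 genes, of which 77 were in the count table and 66 could be tested. At the same threshold 18 of them were called lower and 22 called higher, against 25.1% and 24.5% of all genes tested, and their median log2 fold change was 0.051. Of the 22 higher ones, 6 (GDF6, RGMA, CHRD, ZNF423, RUNX2 and INHBA) reached the filter's cutoff of 0.198 CPM in all libraries of siBAP18 but not of siCtrl. They entered the test only through the group where they were higher, which favors a difference. Their values below are therefore descriptions that support no count. CHRDL2 passed in the same way and was not called (edgeR adjusted p = 0.129). The other 16 higher and all 18 lower genes reached the cutoff in every library. No test compared the lists with the members.

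Among the other BMP ligands, 2 of 7 tested were lower (BMP6, BMP8B) and 2 were higher (BMP2, GDF6). Of all genes tested, 25.1% were lower and 24.5% higher. BMP6, a ligand known for the control of iron metabolism, had 778, 697 and 675 counts in siCtrl and 371, 400 and 274 in siBAP18, and its log2 fold change was −1.11 (SE 0.0883, edgeR adjusted p = 1.32e-10). BMP2, a close relative of BMP4, went the other way from a low level, with 50, 24 and 42 counts in siCtrl and 122, 84 and 70 in siBAP18 (log2 fold change 1.19, SE 0.247, edgeR adjusted p = 0.000268). GDF6 had 12, 4 and 2 counts against 18, 44 and 24, and its log2 fold change of 2.18 (edgeR adjusted p = 0.000681) was 3.07 without siCtrl replicate 1. GDF6 passed the filter only through siBAP18, where it was higher, so its call is no support. Both ligands that were higher had few reads, at most 122 counts in any library.

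Of 9 receptors and coreceptors tested beyond the members, 1 was lower (BMPR1B) and 2 were higher (ACVR2B, RGMA), against 25.1% and 24.5% of all genes tested. RGMA, a BMP coreceptor of the repulsive guidance family, had 8, 4 and 4 counts in siCtrl and 76, 57 and 44 in siBAP18, with a log2 fold change of 3.38 (SE 0.382, edgeR adjusted p = 5.77e-08). RGMA passed the filter only through siBAP18, where it was higher, so its call is no support. The secreted antagonists, which bind BMPs or activins outside the cell, had a median of 0.70. That median includes CHRD and CHRDL2, which passed the filter only through siBAP18, where they were higher, so it is no support. Of 10 tested, 5 were higher (GREM1, NOG, FST, BMPER, CHRD) and 2 lower, and CHRD supports no count. Over all genes tested these shares were 24.5% and 25.1%. GREM1 had 38, 31 and 20 counts in siCtrl and 162, 193 and 98 in siBAP18 (log2 fold change 2.26, SE 0.217, edgeR adjusted p = 3.56e-09). NOG had 34, 24 and 14 counts against 60, 62 and 44 (log2 fold change 1.14, SE 0.290, edgeR adjusted p = 0.0019). Both antagonists rose from low levels, with at most 38 counts in any siCtrl library.

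Inside the cell, 6 of 10 inhibitors of the pathway were lower and 2 higher, against 25.1% and 24.5% of all genes tested. None of them lay past a log2 fold change of 1 in size, and their median was −0.25. SKIL, a SMAD corepressor, and TOB1, an antiproliferative protein that binds SMADs, each fell by 0.55 on the log2 scale (edgeR adjusted p = 1.09e-06 and 6.86e-07). SMAD6, the inhibitory SMAD that acts mainly on BMP signals and is itself a BMP target, went from 78.8 to 65.5 CPM (log2 fold change −0.27, SE 0.0698, edgeR adjusted p = 0.00249). SMAD7, the other inhibitory SMAD, stood at 0.08 with an edgeR adjusted p of 0.607. Of the nuclear partners, SMAD4, the shared SMAD of the BMP and TGF-beta branches, went from 17.9 to 12.6 CPM (log2 fold change −0.50, SE 0.0798, edgeR adjusted p = 9.69e-06), and CREBBP and ZNF423 were higher. ZNF423, a zinc finger partner of SMAD1 and SMAD4, had 11, 24 and 8 counts in siCtrl and 73, 68 and 42 in siBAP18 (log2 fold change 2.00, edgeR adjusted p = 2.52e-05), and 2.62 without siCtrl replicate 2. ZNF423 passed the filter only through siBAP18, so its call is no support.

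Of 10 other genes known as BMP targets that were tested, 3 were lower (ATOH8, BAMBI, SMAD6), 2 were higher and 5 were not called, close to the shares of 25.1% and 24.5% over all genes tested. Their median log2 fold change was 0.051. The 2 higher ones were GATA3, a lineage transcription factor, at 1.73 CPM in siCtrl and 6.39 CPM in siBAP18 (log2 fold change 1.89, edgeR adjusted p = 1.07e-10), and RUNX2, the osteoblast regulator, at 12, 4 and 8 counts against 44, 34 and 20 (log2 fold change 1.94, edgeR adjusted p = 0.000347). RUNX2, like INHBA below, passed the filter only through siBAP18, where it was higher, so its call is no support. HAMP, DLX2, DLX3 and DLX5 had too few reads to test. In the TGF-beta branch, which signals through SMAD2 and SMAD3, 2 of 10 were lower (TGFBR3, ACVR1B) and 3 higher (TGFB2, SMAD2, INHBA). These counts too are close to the shares of 25.1% and 24.5% over all genes tested. INHBA, an activin subunit, had 4, 16 and 12 counts in siCtrl and 28, 34 and 14 in siBAP18, and its call (log2 fold change 1.13, edgeR adjusted p = 0.0359) was lost without siCtrl replicate 1 (0.69, adjusted p = 0.224), siCtrl replicate 3 (1.25, adjusted p = 0.0581), siBAP18 replicate 1 (1.09, adjusted p = 0.0947) or siBAP18 replicate 2 (0.97, adjusted p = 0.119).

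**Figure D4:**
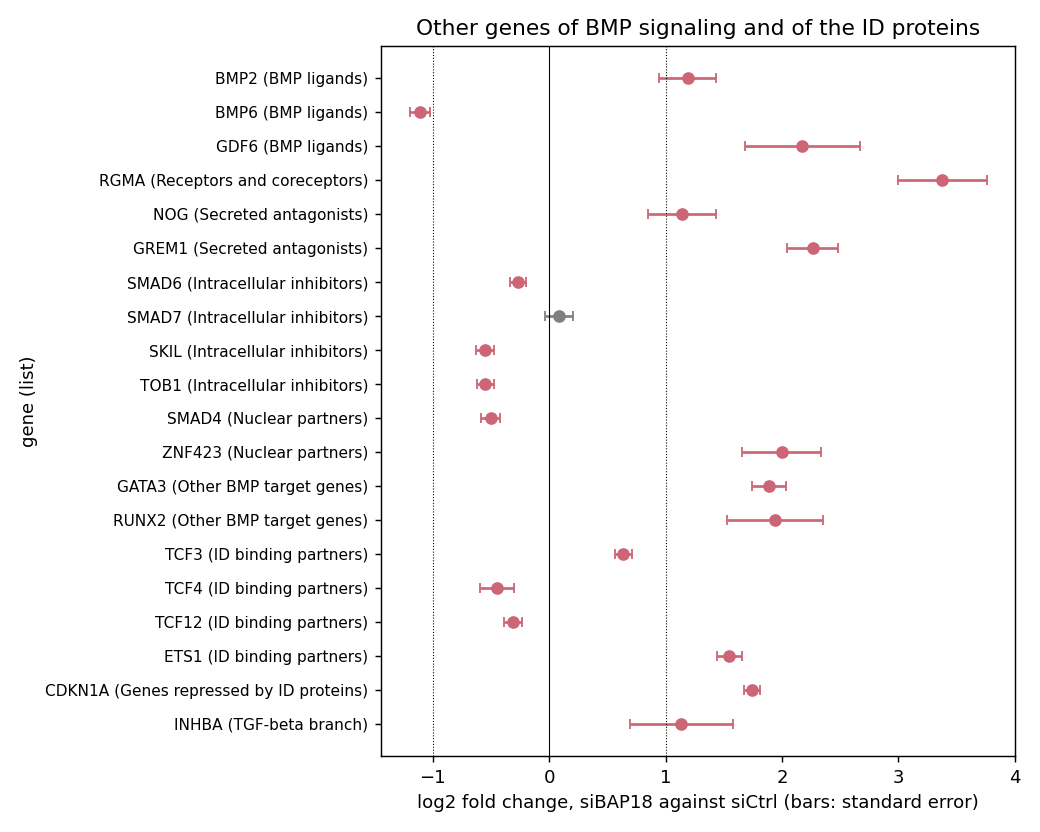
Log2 fold change of siBAP18 against siCtrl (x axis) for 20 genes of the pathway and of the ID proteins outside the 10 members (y axis, with the list of each gene), as points with the standard error as bars, red where the adjusted p was under 0.05 and gray for SMAD7 (0.08). Points right of the line, such as GREM1 (2.26), and left of it, such as BMP6 (−1.11), both occur. GDF6, RGMA, ZNF423, RUNX2 and INHBA passed the filter on low counts only through siBAP18, where they were higher.

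Of 7 genes for binding partners of the ID proteins, 3 were higher (ETS1, TCF3, ELK1) and 3 lower (TCF4, TCF12, RB1). Over all genes tested, 24.5% were higher and 25.1% lower. TCF3, the E protein E2A, went from 26.5 to 41.2 CPM (log2 fold change 0.64, edgeR adjusted p = 6.10e-08). The E proteins TCF12 and TCF4 went the other way, with log2 fold changes of −0.31 (edgeR adjusted p = 0.00163) and −0.45 (edgeR adjusted p = 0.0120). The TCF4 call was lost without siCtrl replicate 1 (−0.30, adjusted p = 0.138) or siBAP18 replicate 1 (−0.33, adjusted p = 0.0950). ETS1, a factor that ID proteins can block, went from 9.35 to 27.2 CPM (log2 fold change 1.55, edgeR adjusted p = 1.01e-11). Of 3 cyclin-dependent kinase inhibitor genes that ID proteins are known to repress, only CDKN1A, which encodes p21, had enough reads to test. It went from 39.0 to 130.5 CPM, and its log2 fold change was 1.74 (SE 0.0729, edgeR adjusted p = 7.30e-16). Whether the levels of the ID genes bear on that of CDKN1A was not tested.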

How the data were processed

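Poly(A)-selected RNA of 6 libraries, 3 siCtrl and 3 siBAP18, was sequenced in pairs by the authors, who deposited whole-number counts per gene without normalization. The authors also deposited RPKM values, which are the counts scaled by the listed gene length and by the total of the library. The submitters' processing notes list hg38 and GRCm38 without a role. The gene positions in the table match hg38. The aligner, the counting program and the use of strand were not given in the sources used here. Of 59860 values from 1 to 20 counts, 75.9% were even, so the mates of a pair may have been counted separately, in which case counts exceed fragments. A count of 0 allows up to 3 counts, which covers counting error only.

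The 10 members and the gene lists were chosen with earlier results of these data known. The filter on low counts was filterByExpr of edgeR 4.0.16, and the remaining genes were compared after TMM scaling in R 4.3.3 (quasi-likelihood test, Benjamini-Hochberg adjustment, all 6 libraries, group as the only term). Standard errors were derived from the log2 fold change and its F statistic. Calls needed an adjusted p under 0.05. Alternatives used limma 3.58.1 on log2(RPKM + 1) or log2(RPKM + 0.1), DESeq2 1.42.0, other scalings and filters, a replicate block, and each library left out in turn. The limma fits kept only genes with a mean RPKM of at least 0.5. The ratios to ID3 were added after seeing the data. Only the main edgeR fit was tested on simulated counts, which had the same dispersion in all genes and both groups. In the data, the siBAP18 libraries were less alike than the siCtrl ones, which the simulation did not cover.

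Named genes were all members, C17orf49, up to 4 genes per list with the smallest adjusted p past a log2 fold change of 1 (else up to 2 called ones), SMAD4, SMAD6, SMAD7, TCF3, TCF4, TCF12 and CDKN1A, and the 2 nearest profiles of each ID gene. Names in parentheses beside a list's count are all its genes called in that direction, and 1 gene is not reported here by name. Same-numbered libraries were checked for pairing by the correlation of their deviations from the group means (r = −0.014, 0.053 and 0.0058), which gave none. No 2 libraries were copies, since chi-square over its degrees of freedom was at least 4.13 between any pair of a group. Promoter windows were taken from RefSeq (GRCh38.p14, 10 of 10 members matched). For each gene, the longest 3′ UTR among its basic protein-coding transcripts in GENCODE release 29 was used, with Python 3.11.15. Plots were drawn with matplotlib 3.10.9.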

Additional observations from a re-analysis of the deposited data

How the results depend on the processing

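The count of 8 lower members was 7 with DESeq2 size factors, with total counts, with at least 10 counts in every library and with DESeq2's Wald test, and 6 with both limma fits. It was again 8 without the filter on low counts, but with SMAD9 (edgeR adjusted p = 0.0405) in place of BMPR1A (edgeR adjusted p = 0.0519). It was 6 without siCtrl replicate 2 or siBAP18 replicate 1. Without siCtrl replicate 1 or siBAP18 replicate 2 it was 8 and, with SMAD9, 9, but SMAD9 passed the filter there only through siCtrl, where it is higher, and is no support. Members past a log2 fold change of −1 numbered 2 on leaving out 1 library or the filter (3 with SMAD9). They numbered 1 with limma on log2(RPKM + 1), where ID2 stood at −0.95. The pathway lists held 15 to 20 lower and 19 to 24 higher genes on leaving out 1 library. They held 14 lower and 11 higher genes with limma on log2(RPKM + 1). That fit's cutoff, a mean RPKM of 0.5, left out BMP2, GREM1, NOG and other higher genes with few reads. These were not tested there, so the smaller count is partly one of fewer genes tested. No member was called higher in any of these fits.

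ID1, ID2, ID4, BMP4, BMPR2 and SMAD5 kept their call in every alternative run, with log2 fold changes of −1.19 to −1.04, −1.34 to −0.95, −0.87 to −0.49, −0.61 to −0.52, −0.43 to −0.20 and −0.82 to −0.38. BMPR1A missed the threshold in 10 of 14 alternatives, with adjusted p values from 0.0519 to 0.225 among them, and SMAD1 also missed it with both limma fits (adjusted p = 0.117 and 0.128). ID3, not called in any fit, changed sign without siCtrl replicate 2 and without siBAP18 replicate 2 (0.0197 and 0.0547, in a leave-one-out range of −0.0858 to 0.0547), and SMAD7 did so without the same libraries (−0.0192 and −0.0323, in a range of −0.0323 to 0.155). INHBA also missed the threshold with DESeq2's Wald test (adjusted p = 0.0608). Causes of these shifts were not tested.

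With the replicate block, 8 members were lower, 0 higher and 2 past −1, and 19 pathway genes were lower and 23 higher. The labels give no shared culture or day for a number, and the numbers did not pair the libraries. With 3 libraries a group, differences as small as that of BMPR1A are at the limit of what was resolved, and SMAD9 has too few reads for a firm value.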
